A study of Mus musculus with 6 samples.

Results

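Small nucleolar RNAs (snoRNAs) were described in freshly isolated, resting CD8+ T cells (CD8-TC) of the mouse spleen, in 3 arrays labelled Runx3-/- and 3 labelled WT (Runx3 +/+). Every array held the RNA of 1 individual male ICR mouse aged 6 weeks, with no treatment named, and ICR is an outbred stock. WT cells were taken by positive selection with anti-CD8 beads, whereas Runx3-/- cells went through the same selection and were then sorted by FACS to take out dendritic cells carrying CD8 and CD11c, so that purification and genotype cannot be told apart, although a further label speaks of sorting without naming a genotype. The members were all probe sets, the groups of probes that give 1 signal on the Affymetrix mouse Gene 1.0 ST array, which were paired with exactly 1 gene symbol and whose symbol began with Snora or Snord. They numbered 56 probe sets for 51 genes, out of 35399 probe sets in the table, of which 21789 were paired with 1 symbol. H/ACA snoRNAs (Snora) made up 23 of them (20 genes) and C/D snoRNAs (Snord) 33 (31 genes). A further 41 snoRNA probe sets that were paired with several symbols, 24 of them of the Snord116 cluster, were left out. Membership goes by symbol, but the family as a whole was chosen by values of this same contrast, the differences between Runx3-/- and WT arrays, which were known from earlier results, so all differences between genotypes below are given as a description.

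SnoRNAs guide chemical modification of other RNAs in the nucleolus, mostly of ribosomal RNA (rRNA). C/D snoRNAs pair with the rRNA and direct methylation of a ribose by fibrillarin, H/ACA snoRNAs direct the change of a uridine into pseudouridine by dyskerin, and a few of both classes are needed for the cutting of the rRNA precursor. Most vertebrate snoRNAs lie in introns of other genes, the host genes, and are trimmed from the excised intron. Many host genes encode ribosomal proteins or translation factors, and others, such as the Snhg genes and Gas5, are long non-coding RNAs (lncRNAs) whose spliced product is short-lived. An array probe in a snoRNA can read the mature snoRNA and also the host transcript before splicing, and the column kit used for the RNA retains short RNAs poorly. The signals below are therefore those of the probe set, and the order of the signals of different probe sets is not an order of RNA abundance.

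The Runx3 probe set itself read 7.06, 7.17 and 7.64 in the Runx3-/- arrays and 7.09, 7.30 and 6.99 in the WT arrays (log2 scale), so the genotype labels were not checked by it, and where its probes lie relative to the disrupted stretch is not known here. Over the 11020 probe sets tested below, the correlation of 2 arrays was at least 0.987 within a genotype and at most 0.975 between genotypes. T cell markers were present in both groups, with a mean log2 signal over 5 of 8 listed markers (Cd3d, Cd3e, Cd3g, Cd8a, Cd8b1) of 10.3 to 10.6 in Runx3-/- arrays and 10.2 to 10.5 in WT arrays, and 0 of the 5 were called, also at an unadjusted p under 0.05. Markers of other spleen cells were lower in Runx3-/- arrays. All 6 measured B cell markers (mean 4.50 to 4.74 in Runx3-/- arrays, 6.92 to 7.50 in WT arrays), all 8 macrophage markers (3.95 to 4.60 in Runx3-/- arrays, 6.91 to 7.19 in WT arrays) and all 5 measured erythroid markers (3.44 to 3.55 in Runx3-/- arrays, 5.40 to 6.26 in WT arrays) were called lower, and 0 of 4 tested dendritic cell markers were called, with 2 lower at an unadjusted p under 0.05. The part of these cells in the snoRNA differences was not tested, and in such bulk samples fewer cells of a type and less RNA per cell cannot be told apart.

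Of the 56 snoRNA probe sets, 54 reached the array median in at least 1 array and were tested. A probe set was called when its adjusted p was under 0.05 (limma, Benjamini-Hochberg over all 11020 probe sets tested). On that basis 12 snoRNA probe sets were lower in Runx3-/- CD8-TC, 4 were higher and 38 had no call. Over all tested probe sets 5.50% were called lower and 5.09% higher. The differences (Runx3-/- minus WT, log2) ran from -2.10 for Snora44 to 1.21 for Snord14e, with a median of -0.10 over all 56 and of -0.08 over those tested, beside 0.00198 over all tested probe sets. A negative difference was found in 35 members and a positive one in 21. The arrays of the genotypes did not overlap in 17 members that were lower in Runx3-/- and 9 that were higher, and overlapped in the other 28 of the 54 tested, while 16.7% of all tested probe sets did not overlap with Runx3-/- lower and 16.9% with Runx3-/- higher. With the thresholds of the study's methods (1.5-fold and an unadjusted p under 0.05), 16 members were lower, beside 4.75% of all tested probe sets, and 4 were higher, beside 3.08%. At an unadjusted p under 0.05 alone, 19 members were lower, beside 13.9% of all tested probe sets, and 10 were higher, beside 13.5%. The count of 12 lower members was 7 without Runx3-/- array 1, without Runx3-/- array 2 or without WT array 1. The count of 4 higher members was 0 without Runx3-/- array 2 and 1 without Runx3-/- array 3, WT array 1 or WT array 2. With 1 array left out, the share of all tested probe sets called in either direction also fell. It was 10.6% with all 6 arrays and 5.52% to 8.77% with 1 removed.

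**Figure D1:**
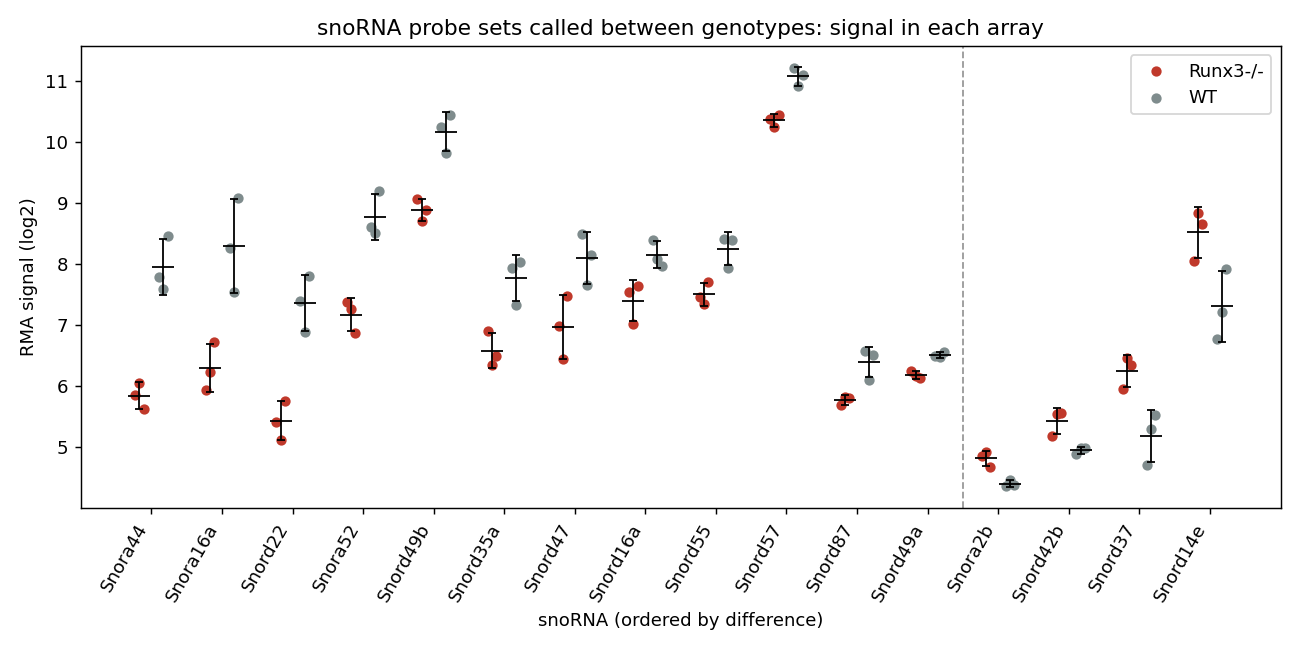
RMA signal (log2, vertical axis) of the 16 called snoRNA probe sets in each array, Runx3-/- in red to the left and WT in grey to the right, with the mean and SD of 3 arrays in black. To the left of the dashed line stand the 12 that were lower in Runx3-/-, led by Snora44 (-2.10), and to the right the 4 that were higher, ending with Snord14e (1.21), and in none of the 16 do the genotypes overlap.

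The lowest values relative to WT were those of both snoRNAs of Snhg12, a lncRNA gene with H/ACA snoRNAs in its introns. Snora44, which in human guides pseudouridylation of 18S rRNA, read 5.85, 6.05 and 5.62 in the Runx3-/- arrays and 7.79, 7.59 and 8.46 in the WT arrays. All 3 Runx3-/- arrays lay below every WT array, with 1.54 log2 units between the nearest of them. The difference of -2.10 ± 0.22 (SE, n = 3 per group) was 4.30-fold (limma adjusted p = 0.000954). Its neighbour Snora16a read 5.93, 6.23 and 6.72 in the Runx3-/- arrays and 8.26, 7.53 and 9.08 in the WT arrays. Its WT arrays were spread more widely (SD 0.77), and the difference was -2.00 ± 0.36 (adjusted p = 0.0123). The remaining H/ACA snoRNA that was called lower was Snora52, which lies in Rplp2, the gene of an acidic protein of the ribosomal stalk. It read 7.38, 7.26 and 6.86 in the Runx3-/- arrays and 8.61, 8.50 and 9.20 in the WT arrays, a difference of -1.60 ± 0.20 (adjusted p = 0.00242).

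Among C/D snoRNAs the lowest value relative to WT was that of Snord22 (U22), which is needed for the processing of 18S rRNA in Xenopus oocytes and lies in the lncRNA gene Snhg1. It read 5.41, 5.12 and 5.76 in the Runx3-/- arrays and 7.39, 6.88 and 7.80 in the WT arrays, a difference of -1.93 ± 0.24 (adjusted p = 0.00235). Snord49b, a guide of 28S rRNA methylation in human, read 9.06, 8.71 and 8.87 in the Runx3-/- arrays and 10.24, 9.81 and 10.44 in the WT arrays, a difference of -1.28 ± 0.17 (adjusted p = 0.00299). It lies in the lncRNA gene 2410006H16Rik. WT array 2 was the lowest WT array for both, as it was for 11 of the 12 members called lower. Snord35a, of the Rpl13a locus whose C/D snoRNAs act in the response of rodent cells to lipid stress, read 6.90, 6.35 and 6.48 in the Runx3-/- arrays and 7.94, 7.33 and 8.03 in the WT arrays. The difference was -1.19 ± 0.21 (adjusted p = 0.0107). Snord57, a guide of 18S rRNA methylation in human, is encoded in Nop56, the gene of a core protein of the C/D particle itself. It had the brightest probe set of the family, with 10.37, 10.23 and 10.44 in the Runx3-/- arrays and 11.21, 10.90 and 11.09 in the WT arrays, a difference of -0.72 ± 0.11 (adjusted p = 0.00582).

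The other 5 C/D snoRNAs called lower differed by between -1.13 and -0.33. Snord47, a 28S rRNA guide in human that lies in Gas5, read 6.98, 6.44 and 7.48 in the Runx3-/- arrays and 8.49, 7.65 and 8.14 in the WT arrays (adjusted p = 0.0406). Runx3-/- array 3 and WT array 2 lay only 0.17 log2 units apart in this member. Snord16a in Rpl4 read 7.54, 7.01 and 7.63 in the Runx3-/- arrays and 8.40, 8.08 and 7.97 in the WT arrays (adjusted p = 0.0354). Snord55, a 28S rRNA guide in human, read 7.45, 7.34 and 7.70 in the Runx3-/- arrays and 8.41, 7.94 and 8.40 in the WT arrays (adjusted p = 0.0207). Snord87 in Snhg6 read 5.68, 5.83 and 5.80 in the Runx3-/- arrays and 6.57, 6.11 and 6.51 in the WT arrays (adjusted p = 0.0237). In all 3 the genotypes stood apart without overlap, by 0.23 to 0.34 log2 units between the nearest arrays. Snord49a, the neighbour of Snord49b, had the smallest difference of those called, with 6.25, 6.16 and 6.12 in the Runx3-/- arrays and 6.49, 6.48 and 6.56 in the WT arrays (adjusted p = 0.0479), and this call was lost in 13 of 18 alternative analyses, among them the removal of any single array.

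The 4 members called higher all lay in protein-coding genes. Snord14e (U14), which belongs to a family needed for 18S rRNA processing in yeast and lies in the chaperone gene Hspa8, read 8.05, 8.84 and 8.65 in the Runx3-/- arrays and 6.77, 7.21 and 7.92 in the WT arrays. The difference was 1.21 ± 0.30 (adjusted p = 0.0392). Snord37, which lies in Eef2, the gene of a translation elongation factor, read 5.95, 6.45 and 6.34 in the Runx3-/- arrays and 4.70, 5.30 and 5.52 in the WT arrays, a difference of 1.07 ± 0.22 (adjusted p = 0.0190). In both, WT array 1 was the lowest array and Runx3-/- array 1 the lowest of its genotype. Snord42b in Rpl23a read 5.19, 5.54 and 5.56 in the Runx3-/- arrays and 4.88, 4.98 and 4.98 in the WT arrays (0.48 ± 0.12, adjusted p = 0.0397). Snora2b in Kansl2 was the only H/ACA snoRNA called higher, with 4.85, 4.91 and 4.68 in the Runx3-/- arrays and 4.36, 4.46 and 4.38 in the WT arrays (0.41 ± 0.10, adjusted p = 0.0333). Snord14 copies, and members that share a number and differ by a letter, may be alike in sequence. No snoRNA sequence was at hand, and reading of one member by the probes of another was not tested.

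Several members without a call had differences as large as those called, with more scatter between arrays. Snora74a (U19) in Snhg4 read 4.07, 3.58 and 3.96 in the Runx3-/- arrays and 4.89, 4.27 and 6.11 in the WT arrays, a difference of -1.22 ± 0.40 (adjusted p = 0.0919). Here WT array 3 was the outlying one. Snord15a in Rps3 read 6.90, 6.52 and 7.28 in the Runx3-/- arrays and 8.05, 7.25 and 8.84 in the WT arrays, a difference of -1.15 ± 0.36 (adjusted p = 0.0834), and its genotypes overlapped by a single pair of arrays. Snora73b in Snhg3 (-0.74), Snord104 in Gm36220 (-0.72) and Snora7a in Rpl32 (-0.67) followed. Snora73b belongs to the U17 family of H/ACA snoRNAs, which act in rRNA precursor cleavage rather than as guides. On the positive side stood Snora70 in Rpl10 (0.65), Snord95 in Rack1 (0.63, adjusted p = 0.0539) and Snora75 in Ncl (0.58). Near 0 lay, among others, Snord33 of the Rpl13a locus (-0.05) and both probe sets of Snora3 (-0.02 and 0.03). Both probe sets of Snord118 (U8), which is needed for the processing of 28S rRNA in Xenopus, held identical values near 2.86 and stayed under the array median in all arrays, and the 2 probe sets of Snora30 also held identical values.

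When the 2 classes were taken apart, 3 of 23 H/ACA probe sets were lower (13.0%) and 1 was higher (4.35%). Of 31 tested C/D probe sets 9 were lower (29.0%) and 3 were higher (9.68%). Over all tested probe sets 5.50% were lower and 5.09% higher, so the H/ACA share of higher calls was near the latter. The median difference was -0.02 for H/ACA and -0.19 for C/D snoRNAs, and the difference between the classes was not tested. The classes were also unequal in signal, since 13 of 23 H/ACA probe sets but only 6 of 33 C/D probe sets were in the dimmest of 3 near-equal bands.

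The differences also went with the level of the signal. The members were split by their mean signal over the 6 arrays into bands of 19 (2.86 to 5.09), 18 (5.19 to 6.74) and 19 (6.88 to 10.7). In the bright band the median difference was -0.72, and 9 of 19 members were lower and 1 was higher in Runx3-/- CD8-TC, beside 3.41% and 6.95% of all tested probe sets in the same range of signal. In the middle band the median was -0.08, with 3 of 18 lower (5.02% of all tested in that range) and 2 higher (5.29%). The dim band had a median of 0.18, with 0 of 17 tested members lower (7.65%) and 1 higher (3.49%). At an unadjusted p under 0.05, 1 dim member was lower (Snora74a) and 5 were higher, beside 13.9% and 13.5% of tested probe sets of any signal. Within the bright band both classes had a negative median, at -1.14 for 6 H/ACA and -0.72 for 13 C/D probe sets. Over the 54 distinct members the correlation of signal and difference was -0.45 (Pearson) and -0.54 (Spearman), beside 0.06 and 0.05 over all tested probe sets. These points come from the same 6 arrays, and the mean signal contains the WT values that also enter the difference, so the figures are a description.

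**Figure D2:**
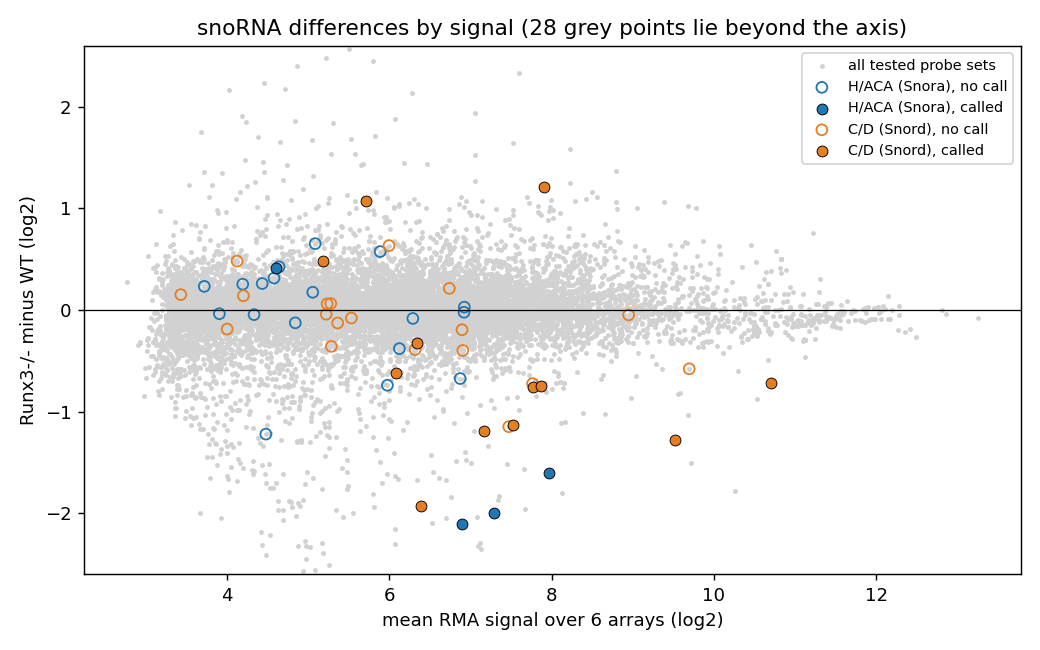
Difference between Runx3-/- and WT arrays (log2, vertical axis) against the mean RMA signal over the 6 arrays (log2, horizontal axis) for the tested H/ACA (blue) and C/D (orange) snoRNA probe sets, filled where called, over all tested probe sets in grey, of which 28 lie beyond the axis. The bright band of members, from 6.88 up, has a median of -0.72, and the dim band, up to 5.09, a median of 0.18.

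The arrays themselves differed in snoRNA signal within a genotype. Among the 3 WT arrays, WT array 3 was the highest for 37 of 56 members and the lowest for 2, whereas over all 11020 tested probe sets it was the highest for 3550 and the lowest for 4509. Runx3-/- array 3 was the highest of its genotype for 32 of 56 members, and Runx3-/- array 1 was the lowest for 32. Relative to the mean of the WT arrays, the median member stood at -0.35, -0.04 and 0.10 in Runx3-/- arrays 1, 2 and 3 and at -0.09, -0.11 and 0.23 in WT arrays 1, 2 and 3. The median SD of a member was 0.26 in Runx3-/- arrays and 0.28 in WT arrays, beside 0.13 and 0.12 over all tested probe sets. Without WT array 3, 9 members were lower and 4 were higher, and 8.77% of all tested probe sets were called in either direction.

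Members were then arranged by the gene they lie in, as the spans of a RefSeq gene table gave it. Where several genes held a member, the gene of shortest span was taken. Of the 13 probe sets inside a lncRNA gene, 7 were lower and 0 higher, beside 5.50% and 5.09% of all tested probe sets, and at an unadjusted p under 0.05 the counts were 11 and 0, beside 13.9% and 13.5%. In 12 of them the difference was negative, and the median was -0.74. Only Snord52, in 1110038B12Rik, had a positive one (0.15 ± 0.09). Of the 41 inside a protein-coding gene, 5 were lower and 4 higher, beside the same shares, with a median of -0.02. Snord118 lay in no other gene. Of the lncRNA hosts, Snhg1, Snhg3, Snhg4, Snhg6, Snhg12, 2410006H16Rik, 1110038B12Rik, Gm26590 and Gm36220 had no probe set of their own under a single symbol, so for these only the snoRNA signals were at hand. Members called lower had a median length of 83.5 bases in that table, those called higher 73 and those without a call 106, with 45 to 205 bases over all members. Length went with class, as the median was 122 bases for H/ACA and 68 for C/D probe sets. Most called members were of the C/D class, so length and class were not told apart.

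Neighbours in one host did not always have like values. Of the hosts that held a pair of members, 9 are described. In Snhg12 both members were lower, at -2.10 and -2.00. In 2410006H16Rik both were lower but by unequal amounts, at -1.28 for Snord49b and -0.33 for Snord49a. At Rpl13a, Snord35a was lower (-1.19), whereas Snord33 read 9.23, 8.23 and 9.31 in the Runx3-/- arrays and 9.11, 8.83 and 8.98 in the WT arrays (-0.05, adjusted p = 0.928). At Rpl23a, Snord42b was higher (0.48) and Snord42a stood at -0.13. In the remaining 5 pairs neither member was called, and their values were -1.15 and -0.58 at Rps3, -0.74 and -0.38 at Snhg3, -0.40 and 0.58 at Ncl, -0.04 and 0.21 at Rps3a1, and 0.48 and 0.63 at Rack1. The largest gap within these pairs was 1.14 log2 units, at Rpl13a, and the gaps themselves were not tested.

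**Figure D3:**
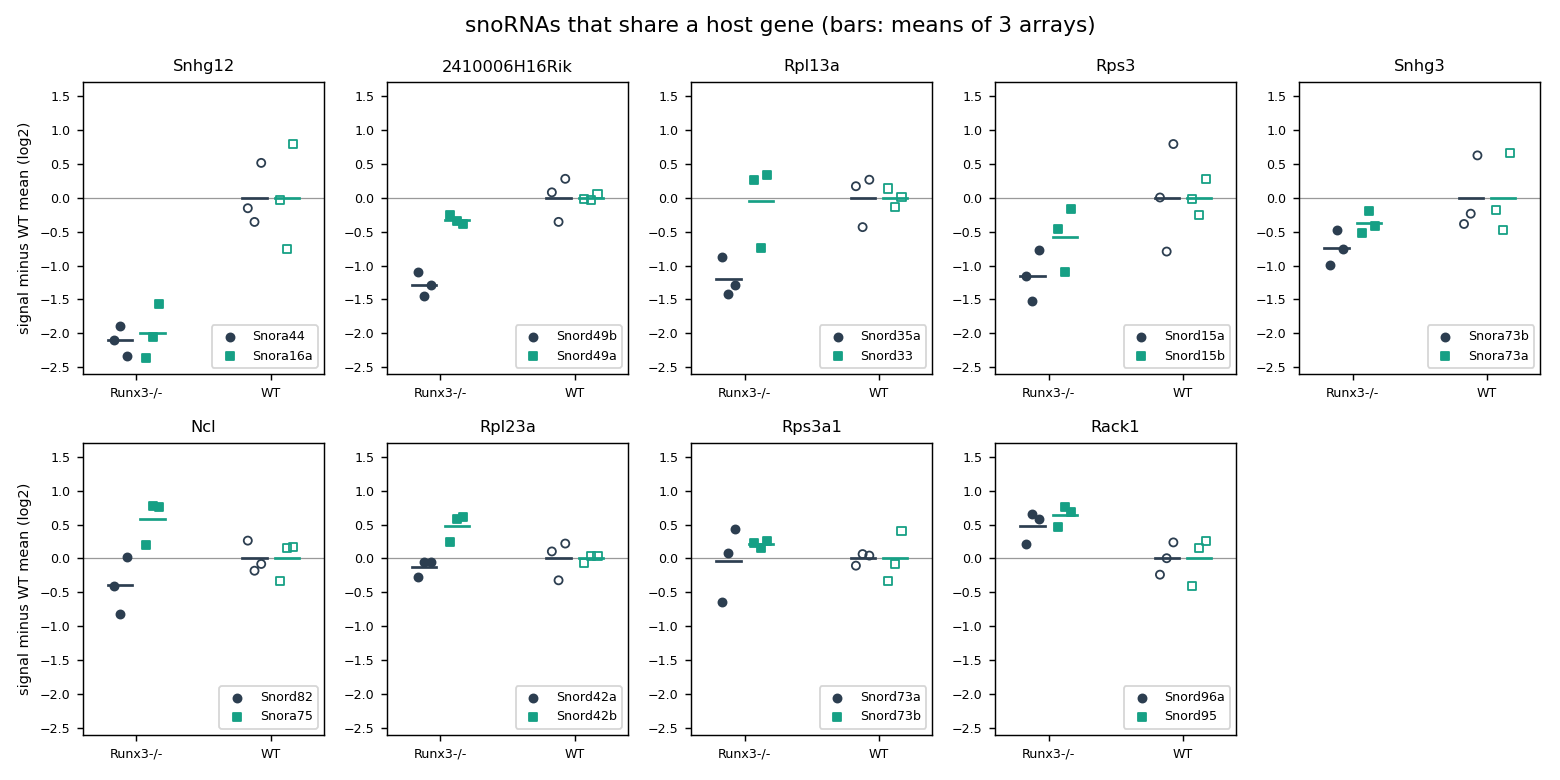
Signal minus the WT mean of the same probe set (log2, vertical axis) for 9 pairs of snoRNAs that share a host gene, with Runx3-/- arrays filled at the left of each panel and WT arrays open at the right, and bars for the means of 3 arrays. Both Snhg12 members lie near -2 in the Runx3-/- arrays, and at Rpl13a Snord35a lies at -1.19 while Snord33 lies at -0.05.

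Where the host gene had a probe set of its own, it could be set beside the snoRNA. This held for 25 of 43 hosts. Each host was represented by its brightest probe set alone. Among the 24 hosts tested 0 were called lower and 0 higher by limma, beside 5.50% and 5.09% of all tested probe sets. At an unadjusted p under 0.05, 4 were lower and 3 higher, near the 13.9% and 13.5% of all tested probe sets. The median host difference was -0.09. Where several genes held a member, it was paired with the gene of shortest span. By that rule the 4 members called lower that had a measured host were Snora52, Snord47, Snord16a and Snord57. Mcmdc2, whose span also holds Snord87, stood at 0.08 and was not tested. The Nop56 probe set read 9.07, 9.18 and 9.14 in the Runx3-/- arrays and 8.70, 8.93 and 8.93 in the WT arrays (0.28 ± 0.10, adjusted p = 0.112), opposite in sign to Snord57. Gas5 read 10.23, 10.40 and 10.45 in the Runx3-/- arrays and 9.91, 10.25 and 10.10 in the WT arrays (0.27 ± 0.11, adjusted p = 0.170), and its 4 probe sets ran from -0.15 to 0.65, with 0 called and 2 higher at an unadjusted p under 0.05. Rpl4 stood at -0.17. Rplp2 stood at 0.04, with a signal of only 4.81 in Runx3-/- arrays and 4.78 in WT arrays. The Rpl4 probe set read 11.5 and 11.6. Whether so dim a probe set reads the Rplp2 mRNA was not tested, so its difference says little about the host of Snora52. The hosts of the 4 members called higher were Hspa8 (-0.13), Eef2 (-0.11), Rpl23a (-0.15) and Kansl2 (0.32 ± 0.09, adjusted p = 0.0562). Over all their probe sets, Hspa8 ran from -0.29 to -0.13, Rpl23a from -0.22 to -0.14 and Kansl2 from 0.32 to 0.36. Over 29 pairs of a member and its host, at 23 hosts, the signs were alike in 14, and the differences correlated at -0.30 (Pearson) and -0.25 (Spearman), as a description over pairs that share arrays and in part hosts.

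**Figure D4:**
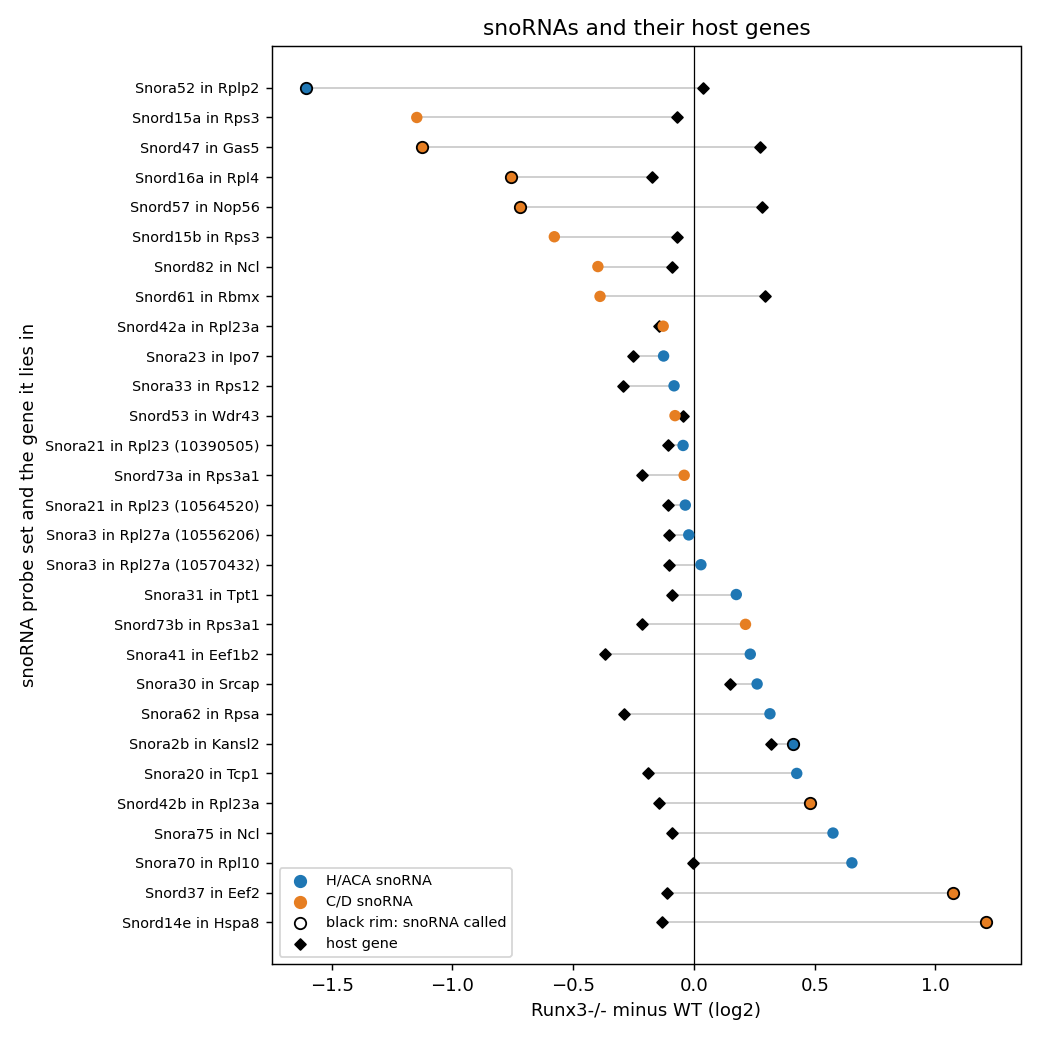
Difference between Runx3-/- and WT arrays (log2, horizontal axis) of 29 snoRNA probe sets (circles, blue for H/ACA and orange for C/D, with a black rim where called) and of the host gene of each (black diamonds). The host genes shown run from -0.37 to 0.32 and 0 of them were called, whereas the snoRNAs run from -1.60 for Snora52 to 1.21 for Snord14e. The diamond beside Snora52 is that of Rplp2, whose probe set was dim (4.81 in Runx3-/- arrays and 4.78 in WT arrays).

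The start sites of the hosts are shown because many hosts of snoRNAs are known to be transcribed from starts of the 5′ terminal oligopyrimidine type, in which the RNA begins with a C followed by a run of pyrimidines, and because RUNX factors bind the words TGTGGT or TGTGGC and likewise TGCGGT or TGCGGC. RefSeq windows (GRCm38.p6) of 300 bases were at hand for 31 of the 43 hosts, 33 windows in all, and for 0 of the snoRNA genes. Each line gives 60 bases before and 20 bases from the annotated start of a host, for some of the hosts of called members. A tract of a C and at least 4 further pyrimidines is in capitals where one began within 2 bases of the start.
Snhg12, host of Snora44 and Snora16a, chr4:132308618-132308697, plus strand: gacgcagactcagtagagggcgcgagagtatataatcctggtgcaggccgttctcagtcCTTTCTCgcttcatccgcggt
Gas5, host of Snord47, chr1:161035106-161035185, plus strand: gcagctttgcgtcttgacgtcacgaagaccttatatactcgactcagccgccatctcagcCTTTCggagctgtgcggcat
Rplp2, host of Snora52, chr7:141447591-141447670, plus strand: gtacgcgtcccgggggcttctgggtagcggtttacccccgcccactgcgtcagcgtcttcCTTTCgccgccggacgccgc
Snhg1, host of Snord22, chr19:8723427-8723506, plus strand: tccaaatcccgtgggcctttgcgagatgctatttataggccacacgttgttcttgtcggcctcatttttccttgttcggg
2410006H16Rik, host of Snord49b and Snord49a, chr11:62602817-62602896, plus strand: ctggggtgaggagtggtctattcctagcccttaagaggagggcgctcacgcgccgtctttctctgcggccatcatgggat
Nop56, host of Snord57, chr2:130274352-130274431, plus strand: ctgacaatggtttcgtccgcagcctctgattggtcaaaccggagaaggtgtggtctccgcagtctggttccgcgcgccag
Eef2, host of Snord37, chr10:81176571-81176650, plus strand: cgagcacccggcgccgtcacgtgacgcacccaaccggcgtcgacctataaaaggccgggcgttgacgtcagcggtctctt

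A tract at the start was found in 11 of the 31 hosts (11 of 33 windows), beside 8.96% of all 32851 windows of the table. Of the lncRNA hosts 5 of 7 had one, and of the protein-coding hosts 6 of 24. Snhg12, Rplp2 and the Gas5 start shown are among those with a tract, the other annotated Gas5 start had none, and the windows of Snhg1, 2410006H16Rik, Nop56 and Eef2 held none at the annotated base. Of the hosts of called members whose windows are not printed, Rpl13a had a tract of 14 bases from base 3, and Rpl4 and Kansl2 had none. A RUNX word on either strand was found in 19 of 33 host windows, beside 45.2% of all windows. It was present in 5 of 8 hosts of members called lower that had a window and in 1 of 2 hosts of members called higher. The Snhg12 window held 0 of the words, and the Nop56 window held 5, among them TGTGGT at base -12 before the start. These are matches of letters in a fixed window, and the tract and the words may share bases at their ends.

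Genes whose products bind, assemble or use snoRNAs were mostly without a call. Of the 4 core proteins of the C/D particle (Fbl, Nop56, Nop58 and Snu13) 0 were called, with Nop56 higher at an unadjusted p under 0.05. Of the 4 core proteins of the H/ACA particle, Nhp2 was lower, with 6.87, 6.71 and 6.89 in the Runx3-/- arrays and 7.16, 7.23 and 7.38 in the WT arrays (-0.44 ± 0.10, adjusted p = 0.0305). Dkc1, the pseudouridine synthase, stood at -0.19, Gar1 at -0.19 and Nop10 at -0.10, without a call. Of 13 assembly and trafficking factors and of 11 factors of RNA decay and trimming, 0 were called, and 0 had an unadjusted p under 0.05. Among 20 RNA polymerase I and nucleolar genes, 2 were lower (10%) and 1 was higher (5%), beside 5.50% and 5.09% of all tested probe sets. At an unadjusted p under 0.05, 4 were lower and 1 higher (13.9% and 13.5% over all tested). The difference was negative in 14 of the 20 and positive in 6. The genotypes did not overlap in 7 that were lower and 2 that were higher (16.7% and 16.9% over all tested). Utp20 (-0.45, adjusted p = 0.0231), a component of the small-subunit processome, and the helicase Ddx21 (-0.31, adjusted p = 0.0454) were lower, and Taf1c (0.35, adjusted p = 0.0436), a subunit of the polymerase I selectivity factor, was higher.

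Other small non-coding RNAs were read in the same arrays by 19 probe sets of 17 genes, of which 15 probe sets were tested. Of these, 5 were lower in Runx3-/- CD8-TC and 0 were higher (9 and 2 at an unadjusted p under 0.05), beside 5.50% and 5.09% (13.9% and 13.5%) of all tested probe sets, with a median difference of -0.19 over all 19. The lowest was n-R5s136, annotated as a 5S rRNA gene, with 4.79, 6.10 and 4.68 in the Runx3-/- arrays and 8.99, 8.70 and 10.36 in the WT arrays (-4.16 ± 0.49, adjusted p = 0.00176). Rny3, a Y RNA, read 6.06, 5.78 and 5.97 in the Runx3-/- arrays and 8.64, 7.91 and 8.22 in the WT arrays (-2.32 ± 0.18, adjusted p = 0.000211). Rmrp, the RNA of the nucleolar RNase MRP that cuts the rRNA precursor, read 9.50, 8.99 and 9.60 in the Runx3-/- arrays and 11.21, 10.94 and 11.29 in the WT arrays (-1.78 ± 0.17, adjusted p = 0.000658). The RNase P RNA probe sets Rprl1 (-0.62) and Rpph1 (-0.46) were also lower. Rnu3a, a U3 RNA of the C/D type that acts in the first cuts of the rRNA precursor, read 3.98, 3.41 and 3.63 in the Runx3-/- arrays and 5.19, 4.20 and 6.21 in the WT arrays (-1.53 ± 0.43, adjusted p = 0.0588). Scarna17, a guide RNA of the Cajal body, stood at 0.26 ± 0.10 (adjusted p = 0.127), with every Runx3-/- array above every WT array. Its 2 probe sets held identical values, and they are the 2 counted as higher at an unadjusted p under 0.05.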

How the data were processed

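Total RNA was isolated with the RNeasy Micro kit, labelled by whole-transcript cDNA synthesis and hybridised to Affymetrix mouse Gene 1.0 ST arrays, 1 array per mouse. The deposited values are log2 signals that the authors had normalized, by their methods, with GC-corrected RMA in Partek Genomics Suite, which the submitters' processing notes name as well. For neither tool nor for the genome build is a version given in the sources used here. Array medians were 3.45 to 3.53. Arrays have no read depth, and their number (3 per genotype) limits the precision. At most 14 values were identical between any 2 arrays. The labels give each array as a separate mouse.

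Probe sets were named through GEO's platform annotation, and all 56 snoRNA probe sets had their Entrez identifier in a RefSeq gene table (GRCm38.p6), which served for names, lengths and host genes. A host was a protein-coding or lncRNA gene whose span contained the snoRNA, whatever its strand, which that table does not give. Members with several hosts were classed and paired by the host of shortest span. The brightest probe set with a single symbol stood for a host. Probe sets with 1 symbol that reached the array median (50% of probe sets) in at least 1 array were tested, 11020 in all, two-sided, with limma 3.58.1 (R 4.3.3, lmFit and eBayes, Runx3-/- minus WT, threshold 0.05 after Benjamini-Hochberg adjustment). The script was tested on simulated data. Samples were grouped by their titles. A host gene with its pair of members is not reported here.

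Within each class the 5 largest called differences in each direction, the 4 brightest probe sets, members that share a host with a called member and, in each gene list, up to 4 genes of lowest p were named. Other members and host genes were named after their values were seen. The members and lists were chosen with earlier results of these data known. Alternatives were another normalization, other filters, 1 probe set per gene, other variance models, a replicate block and the removal of each array. Deviations of same-numbered arrays of the genotypes correlated weakly over all tested probe sets (0.19, 0.05 and 0.01). No pairing was assumed, though it is not excluded.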

Additional observations from a re-analysis of the deposited data

How the results depend on the processing

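Of the main counts of 4 snoRNA probe sets higher and 12 lower in Runx3-/-, the first was 2 with no filter on signal, 0 when all probe sets whatever their annotation were tested (6 lower), 0 without moderation of the variances (0 lower) and 7 with array weights. In the main analysis 10 snoRNA probe sets were higher and 19 lower at an unadjusted p under 0.05 (limma), beside 13.5% and 13.9% of all tested probe sets. Leaving out 1 array at a time gave 0 to 5 snoRNA probe sets higher and 7 to 13 lower, beside 5.52% to 8.77% of all tested called. Quantile normalization, median centring, the 25th and 75th percentile filters, 1 probe set per gene and a variance trend gave 3 to 5 higher and 11 or 12 lower. Between 6.60% and 12.9% of all tested probe sets were called in these settings. Snora44, Snord22, Snora52, Snord49b and Snord57 lost their call only without moderation, whereas Snord49a lost it in 13 of 18 alternatives. Whether same-numbered arrays are pairs is not known here. Over all tested probe sets their deviations correlated at 0.19, 0.05 and 0.01, and those of other combinations at -0.15 to 0.07. With the replicate number as a block 7 snoRNA probe sets were higher and 14 lower, and 10.4% of all tested probe sets were called. When 1 array was left out, Snord33 ran from -0.24 to 0.30 and changed sign without Runx3-/- array 2 (0.30) or WT array 1 (0.02). The 2 probe sets of Snora3 ran from -0.13 to 0.09 (0.0891, 0.0348 and 0.0139 without Runx3-/- array 1, WT array 2 and WT array 3) and from -0.07 to 0.15 (-0.0750 and -0.0590 without Runx3-/- array 3 and WT array 1). The median difference lay between -0.17 and -0.00190 over the alternatives, that of C/D snoRNAs between -0.28 and -0.13, and that of H/ACA snoRNAs between -0.11 and 0.16, so the last had no settled sign. The cause of these shifts was not tested. No detection call was used here, so dim signals could not be told from background.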
